A study of Mus musculus with 4 samples.

Results

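Checkpoint ligands and ligands of natural killer (NK) cell receptors are surface or secreted proteins with which a tumor cell restrains or triggers lymphocytes and macrophages. The set described here was named by gene symbol: Cd274, Pdcd1lg2, Cd276, Pvr, Nectin2, Cd47, Lgals9, Raet1e, H60b and Ulbp1. All 10 symbols were present among the 22186 genes of the deposited table. RNA sequencing was done on 4 libraries of the mouse colon carcinoma line MC38, all carrying a stably transfected TetOn-CXCL14 construct, in which doxycycline switches on the chemokine CXCL14. The 2 control libraries came from cultures given the solvent PBS (the label reads Untreat), and the 2 doxycycline (DOX) libraries from cultures given 1 µg/mL of the drug, both grown for 72 h. The series text speaks of cells before and after induction, and calls the 2 samples of a group biological replicates. The sources used here state neither whether the line is 1 clone nor the species of the transgene. Cells lacking the construct were not treated with the drug in this series, so an effect of CXCL14 and an effect of the drug cannot be told apart.

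The PD-1 ligands, PD-L1 (Cd274) and PD-L2 (Pdcd1lg2), engage PD-1 on T cells and dampen their activation, and blockade of this pair is a standard treatment tested in MC38 tumors. Nectin-2 (Nectin2) and the poliovirus receptor homolog CD155 (Pvr) bind the activating receptor CD226 and inhibitory receptors such as TIGIT, CD96 and PVRIG on NK and T cells. RAE-1 epsilon (Raet1e), H60b and MULT1 (Ulbp1) are stress-induced ligands of NKG2D, an activating receptor of NK cells. CD47 binds SIRP alpha on macrophages and blocks engulfment, galectin-9 (Lgals9) is a secreted lectin that binds TIM-3, and B7-H3 (Cd276) is a B7 family protein of many tumors.

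Levels are in TPM (a share of all transcripts corrected for length), so genes can be ranked within a library. Neither deposited table holds counts, so the depth behind each value is unknown. Cxcl14, the induced gene, stood at 27.3 and 29.2 TPM in control cultures and at 385 and 391 TPM with DOX, higher in the libraries labelled as induced. Of 10 colon epithelial markers, all had a mean under 1 TPM, their summed level was 0.0774 to 0.539 TPM per library, and Cdh1, Cdx1, Cdx2 and Krt19 were listed at 0 throughout. The labelled cell type, a colon cancer cell, was therefore not marked by these genes. Immune cells that carry the matching receptors were hardly visible: 8 T and NK cell markers summed to 0.150 to 0.450 TPM, with Cd3e, Cd3g, Cd8a, Ncr1 and Gzmb listed at 0. The 10 macrophage markers summed to 1.12 to 1.49 TPM, with Laptm5, C1qa and C1qc listed at 0. Most of that sum was Fcer1g, at 1.32 and 1.16 TPM in control cultures and 0.934 and 1.30 TPM with DOX, which did not pass the test. The 5 endothelial markers summed to 0.119 to 0.627 TPM, with Kdr and Cldn5 listed at 0. Of 7 fibroblast markers, Pdgfra and Pdgfrb passed the test as lower after DOX, and the list summed to 403 and 411 TPM in control cultures against 66.0 and 50.5 TPM with DOX, most of it Pdgfra (350 and 358 TPM against 34.1 and 26.8 TPM). Col1a1, the other tested marker, did not pass, at 2.43 and 2.14 TPM in control cultures and 3.39 and 2.02 TPM with DOX. Thy1 was listed at 0, and Col1a2, Lum and Fap were under 1 TPM. The part of this in the results below was not tested.

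Promoter windows were found by symbol for 8 of the 10 genes in RefSeq (build GRCm38.p6, an earlier build than the mm39 of the deposited data), each from 250 bases before to 50 bases after a transcript start. The windows of 4 genes are shown because Cd274 moved up, Nectin2 and Ulbp1 moved down, and Lgals9 did not pass the test. Each was searched on both strands for the interferon-stimulated response element core (GAAA and GAAA with any 2 bases between), the STAT element TTCNNNGAA, the NF-kappaB pattern (GGG and CC with any 5 bases between) and the E-box CACGTG. Capitals mark matched bases, and overlapping matches run together.
The Cd274 window lies on the plus strand at chr19:29367188-29367487.
Cd274: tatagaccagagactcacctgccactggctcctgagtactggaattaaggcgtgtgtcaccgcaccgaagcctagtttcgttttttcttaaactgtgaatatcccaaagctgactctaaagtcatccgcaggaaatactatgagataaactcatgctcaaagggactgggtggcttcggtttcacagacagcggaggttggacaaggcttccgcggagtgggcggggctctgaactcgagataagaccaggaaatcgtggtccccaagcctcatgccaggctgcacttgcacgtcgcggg
The Nectin2 window lies on the minus strand at chr7:19749524-19749823.
Nectin2: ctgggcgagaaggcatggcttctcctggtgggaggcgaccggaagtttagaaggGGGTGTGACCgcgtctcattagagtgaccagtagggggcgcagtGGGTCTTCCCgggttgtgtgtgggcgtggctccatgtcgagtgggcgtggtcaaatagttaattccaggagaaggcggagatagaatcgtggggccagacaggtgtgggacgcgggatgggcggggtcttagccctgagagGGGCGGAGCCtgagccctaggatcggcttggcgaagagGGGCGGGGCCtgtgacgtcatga
The Ulbp1 window lies on the minus strand at chr10:7473428-7473727.
Ulbp1: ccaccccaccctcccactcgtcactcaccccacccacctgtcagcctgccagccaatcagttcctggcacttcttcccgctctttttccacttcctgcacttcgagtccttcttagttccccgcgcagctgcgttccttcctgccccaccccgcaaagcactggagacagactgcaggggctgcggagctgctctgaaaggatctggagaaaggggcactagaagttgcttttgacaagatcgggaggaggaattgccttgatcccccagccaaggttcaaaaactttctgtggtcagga
The Lgals9 window lies on the minus strand at chr11:78984875-78985174.
Lgals9: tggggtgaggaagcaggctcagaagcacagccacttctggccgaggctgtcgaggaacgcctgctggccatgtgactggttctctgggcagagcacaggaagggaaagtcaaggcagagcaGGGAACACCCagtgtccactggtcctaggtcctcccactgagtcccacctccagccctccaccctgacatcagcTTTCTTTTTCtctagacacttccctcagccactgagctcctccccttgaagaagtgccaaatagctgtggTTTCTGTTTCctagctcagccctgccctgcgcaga
The Lgals9 window held the interferon element at 2 places, starting at bases 196 and 266 of the window, an element present in 3.44% of 32851 RefSeq promoter windows of this length. The Nectin2 window held the NF-kappaB pattern starting at bases 55, 99, 240 and 278, and the Lgals9 window at base 122. That pattern is loose and was present in 50.8% of all windows. The STAT element (8.3% of windows) and the E-box (7.15%) were in none of the 4. The Cd274 and Ulbp1 windows held none of the 4 motifs in these letters. Among the windows not shown, none held the interferon element. Over both strands the NF-kappaB pattern had 10 matches for Cd276, 3 in 1 of the 2 Raet1e windows and 2 for Pdcd1lg2. How the motifs relate to the changes was not tested.

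The 10 genes spanned a wide range of levels in this line. In the controls the order by mean TPM was Cd47 (241), Pvr (113), Ulbp1 (109), Lgals9 (93.3), Nectin2 (71.6), Raet1e (55.2), Cd274 (17.3) and Cd276 (12.1). Each of these stood above the next in both libraries, although Pvr and Ulbp1 were only 1.04-fold apart. H60b was listed at 0.164 and 0 TPM and Pdcd1lg2 at 0.0944 and 0 TPM in control cultures, and both at 0 in the 2 DOX libraries. No fold is given for these 2 genes, which lay under the mean of 1 TPM needed for testing. PD-L1 was therefore the only PD-1 ligand at a level that could be tested. After DOX the order changed: Lgals9 (86.2 TPM) came second behind Cd47 (230 TPM), and Ulbp1 (65.7 TPM) and Pvr (65.6 TPM) could not be separated, nor could Nectin2 (39.3 TPM) and Raet1e (38.1 TPM). Cd274 and Cd276 kept the seventh and eighth places.

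**Figure D1:**
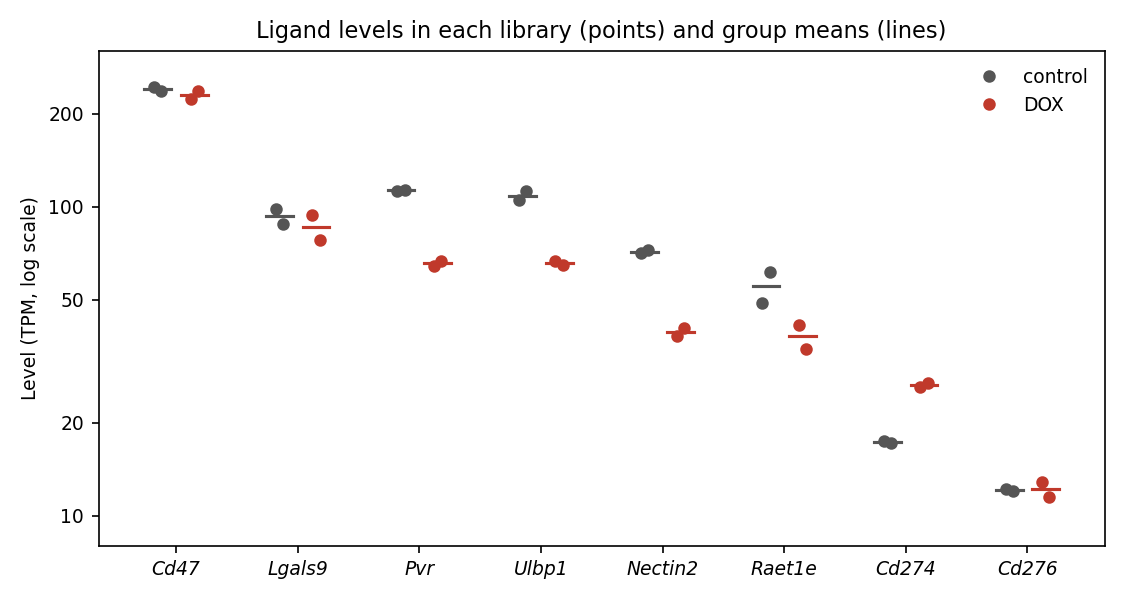
TPM on a log scale for the 8 ligands with a mean of at least 1 TPM, with 1 point per library and a line at each group mean (control gray, DOX red). Pvr, Ulbp1, Nectin2 and Raet1e lie lower in both DOX libraries, Cd274 lies higher, and the points of Lgals9 and Cd276 overlap between groups.

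The comparison between groups asked which of these ligands differed once the construct was induced. Among the 8 tested ligands, 1 rose (Cd274), 4 fell (Pvr, Nectin2, Ulbp1 and Raet1e) and 3 did not pass (Cd47, Lgals9 and Cd276), by limma on log2(TPM + 1) with a Benjamini-Hochberg adjusted p under 0.05 over all genes tested. Over all 11359 genes tested, 29.0% were called higher and 35.4% lower, so a call in either direction was common in these data (64.4% of genes). That balance turned with the scaling: median-of-ratios factors gave 33.5% up and 31.3% down, and quantile normalization 34.1% up and 29.5% down, while the 5 calls among the ligands held. Both DOX libraries lay above both controls for 1 of the 8 and below them for 5 (Cd47 being the fifth), beside 37.7% and 45.0% of all genes tested. With so few genes, these shares single out nothing about the set. The median log2 fold change of the 8 was -0.32, and of all genes tested -0.04 (0.02 and 0.05 under those scalings). A fold change on this scale understates the change of low genes. With 2 libraries against 2 an exact permutation test (two-sided) cannot go below p = 0.33, so the calls rest on the spread limma shares across genes.

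**Figure D2:**
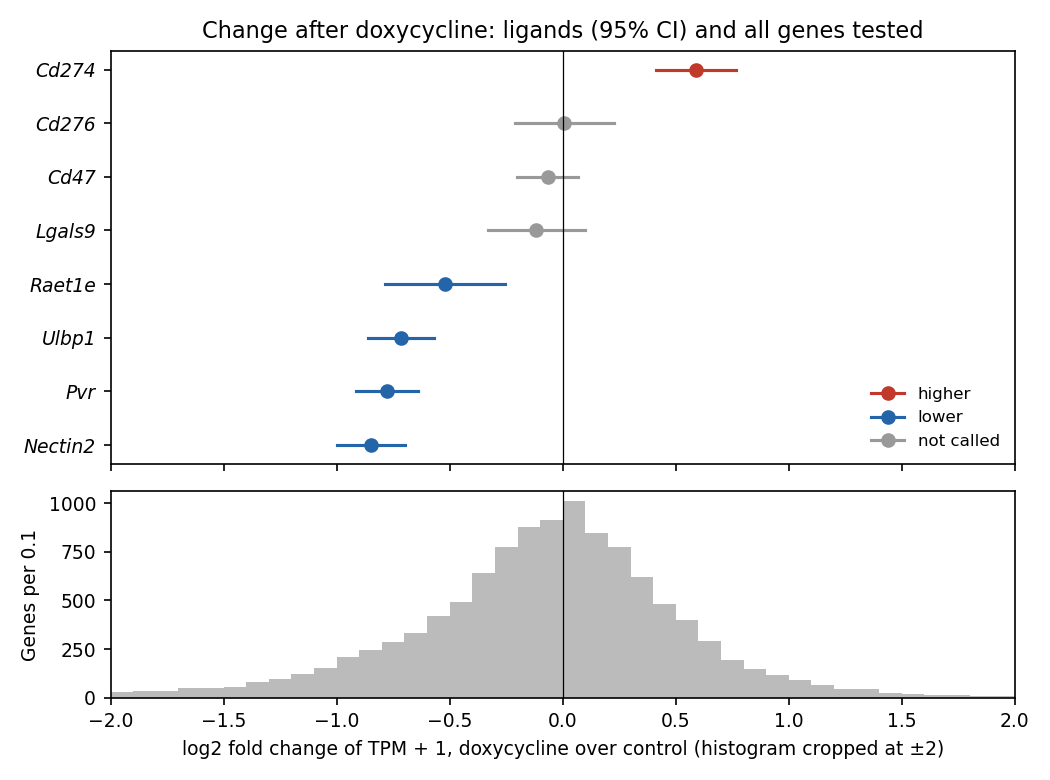
Upper panel, log2 fold change (DOX over control) of each tested ligand with its 95% confidence interval from limma, colored by call. Lower panel, the same measure for all genes tested, as genes per 0.1 wide bin between -2 and 2. The intervals of Cd276, Cd47 and Lgals9 include 0, and the largest change among the ligands (Nectin2, -0.85) lies well inside the spread of all genes.

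Of the PD-1 ligands, Cd274 rose. It stood at 17.4 and 17.2 TPM in control cultures and at 26.1 and 27.0 TPM with DOX. Both DOX libraries were above both controls, and the libraries of a group lay close together. The mean rose from 17.3 ± 0.184 to 26.5 ± 0.620 TPM (SD, n = 2), which is 1.53-fold (log2 fold change 0.59, SE 0.08, limma adjusted p = 0.000156). Of all genes tested, 28.0% changed more in size, so the rise was moderate for these data. In GENCODE M21, 511 exonic bases of Cd274 overlap an antisense gene model on the opposite strand. The same holds for 135 bases of Nectin2, and 416 bases of Cd276 overlap an opposite-strand model of another type. The sources used here do not say whether counting used strand, so reads of both partners cannot be told apart there.

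Pvr and Nectin2, which share CD226 as a receptor, both fell. Pvr stood at 113 TPM in each control library and at 64.1 and 67.0 TPM with DOX. Nectin2 stood at 70.9 and 72.3 TPM in control cultures and at 38.1 and 40.5 TPM with DOX. The groups were far apart for both genes compared with the gap between replicates. Pvr fell by 42.0%, from 113 ± 0.206 to 65.6 ± 2.06 TPM (SD, n = 2, log2 fold change -0.78, SE 0.06, limma adjusted p = 5.02e-06). Nectin2 fell by 45.1%, from 71.6 ± 1.01 to 39.3 ± 1.70 TPM (SD, n = 2, log2 fold change -0.85, SE 0.07, limma adjusted p = 5.21e-06). These were the widest changes among the 8 ligands, with 18.5% and 15.8% of all genes tested changing more. The ratio of Pvr to Nectin2 within a library was 1.59 and 1.57 in control cultures and 1.68 and 1.65 with DOX, so their balance moved by 1.06-fold while both fell. Together the pair summed to 184 and 185 TPM in control cultures and 102 and 108 TPM with DOX.

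Both NKG2D ligands at a testable level also fell. Ulbp1 stood at 105 and 112 TPM in control cultures and at 66.7 and 64.7 TPM with DOX. Raet1e stood at 48.8 and 61.7 TPM in control cultures and at 41.5 and 34.7 TPM with DOX. The groups did not overlap for either gene, but the Raet1e replicates were spread more widely. Ulbp1 fell by 39.5%, from 109 ± 5.16 to 65.7 ± 1.40 TPM (SD, n = 2, log2 fold change -0.71, SE 0.06, limma adjusted p = 1.19e-05). Raet1e fell by 31.1%, from 55.2 ± 9.12 to 38.1 ± 4.79 TPM (SD, n = 2, log2 fold change -0.52, SE 0.12, limma adjusted p = 0.00378). The ratio of Ulbp1 to Raet1e overlapped between the groups, at 2.15 and 1.82 in the controls and 1.61 and 1.87 after DOX. Summed over Ulbp1, Raet1e and H60b, NKG2D ligand RNA was 154 and 174 TPM in control cultures and 108 and 99.4 TPM with DOX. The single values of Raet1e and H60b are uncertain: their gene models share 133 identical exonic bases. Raet1e also shares 430 bases at 98.8% identity with Raet1d, and these gene models overlap by 363 exonic bases on the same strand. Raet1d, another RAE-1 gene, was listed at 0.306 and 0.550 TPM in control cultures and 0.630 and 0.257 TPM with DOX, and H60c was listed at 0 throughout. No listed gene carried the symbols Raet1a, Raet1b, Raet1c or H60a. Whether reads of such relatives count toward the Raet1d and Raet1e values is not known.

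Cd47, Lgals9 and Cd276 did not pass the test. Cd47, the most abundant of the 10, stood at 245 and 237 TPM in control cultures and at 224 and 236 TPM with DOX. The second DOX library was only just under the lower control. The log2 fold change was -0.07 (95% confidence interval -0.20 to 0.07, limma adjusted p = 0.359). Lgals9 stood at 98.7 and 87.9 TPM in control cultures and at 94.3 and 78.0 TPM with DOX, and the groups overlapped. Its log2 fold change was -0.12 (interval -0.33 to 0.10, limma adjusted p = 0.303). Each library weighed on this value: Lgals9 passed as lower without DOX replicate 1 (-0.25, limma adjusted p = 0.0351), and was 0.017 without DOX replicate 2, -0.035 without control replicate 1 and -0.20 without control replicate 2, none of which passed (adjusted p = 0.895, 0.809 and 0.186). Cd276 stood at 12.2 and 12.0 TPM in control cultures and at 12.8 and 11.5 TPM with DOX, with the DOX libraries on either side of the controls. Its log2 fold change was 0.0067 (interval -0.21 to 0.23, limma adjusted p = 0.957). These intervals leave room for changes of the size given, and do not show that the 3 genes were the same in both groups.

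Cd274 also changed in proportion to other ligands, both those that fell and those that did not pass, and such ratios do not depend on how a library is scaled. The ratio of Cd274 to Pvr was 0.154 and 0.152 in control cultures and 0.407 and 0.402 with DOX, a 2.64-fold higher mean. Relative to Nectin2, Cd274 stood at 0.246 and 0.238 in the controls and 0.685 and 0.666 after DOX, 2.79-fold higher. Against genes that did not pass the test the shift was smaller, 1.61-fold relative to Cd47 and 1.53-fold relative to Cd276. In all of these ratios both DOX libraries lay above both controls. The ratios were formed from the same values as the single-gene results and add no separate evidence. The 10 ligands together summed to 711 and 713 TPM in control cultures and 567 and 560 TPM with DOX, a fall of the mean by 20.9%.

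**Figure D3:**
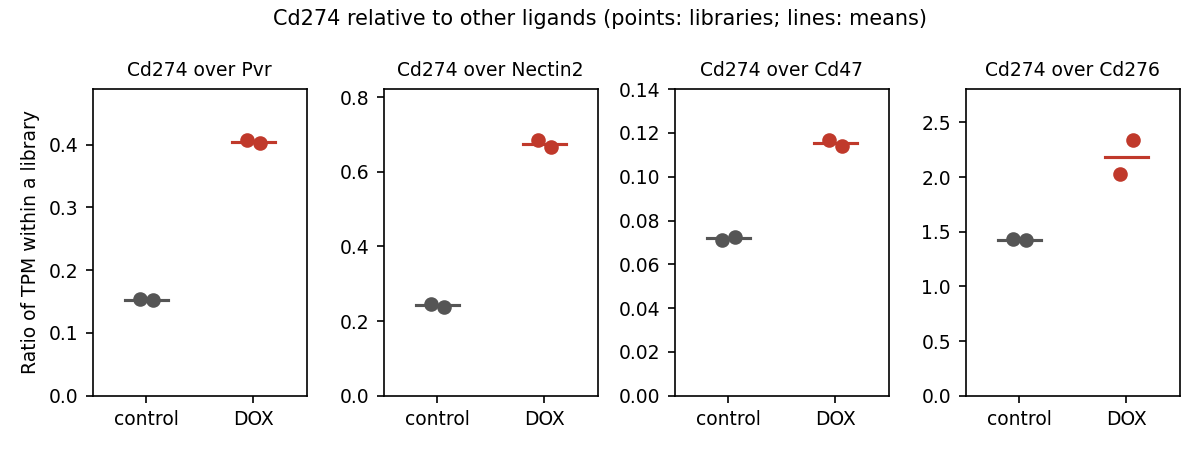
Ratio of Cd274 TPM to that of Pvr, Nectin2, Cd47 and Cd276 within each library, on axes that start at 0, with points for libraries and lines for group means. The 2 DOX libraries lie above the 2 controls in each panel, by 2.64-, 2.79-, 1.61- and 1.53-fold in mean.

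Other genes of these pathways were taken from lists named by role. Over all genes tested, 29.0% were called higher and 35.4% lower. With so few genes per list, the counts below single out nothing about a pathway. Among 17 other B7, butyrophilin and related checkpoint ligands, 7 were tested, 2 rose and 4 fell (median log2 fold change -0.31). The galectins Lgals1 and Lgals3, lectins that bind T cell glycoproteins, rose from 2949 ± 157 to 4368 ± 11.1 TPM and from 794 ± 94.1 to 1276 ± 2.87 TPM (SD, n = 2). Cd200, whose product restrains myeloid cells through its receptor, fell from 3.12 ± 0.209 to 0.431 ± 0.101 TPM, and the butyrophilin Btn2a2 from 2.91 ± 0.314 to 1.31 ± 0.360 TPM. The costimulatory ligands Cd80 and Cd86 were under 1 TPM in every library. Of 7 other nectins and nectin-like adhesion molecules, 3 were tested, and they split: Nectin3 rose from 39.5 ± 3.73 to 65.7 ± 1.15 TPM, whereas Nectin1 fell from 7.53 ± 0.0687 to 3.73 ± 0.355 TPM and Cadm4 from 8.17 ± 0.629 to 5.08 ± 0.884 TPM. These genes had limma adjusted p-values no higher than 0.00342, and under quantile normalization Btn2a2 (adjusted p = 0.0604) and Cadm4 (adjusted p = 0.0757) lost their calls.

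Among 15 ligands of other NK cell receptors and adhesion or death receptors that NK cells engage, 7 were tested, 2 rose and 5 fell (median log2 fold change -1.11). Fas, which encodes a receptor that triggers cell death, fell from 36.7 ± 1.43 to 4.57 ± 1.09 TPM (SD, n = 2), the widest change of this list. Icam1, the adhesion ligand of the integrin LFA-1, fell from 3.68 ± 0.303 to 0.619 ± 0.205 TPM. H2-T23, which encodes the Qa-1 ligand of NKG2A receptors, fell from 51.2 ± 1.56 to 17.5 ± 2.36 TPM. Clec2d, which encodes a ligand of an inhibitory NK receptor of the NKR-P1 family, fell from 13.9 ± 0.697 to 5.94 ± 1.41 TPM. These 4 had limma adjusted p-values no higher than 0.00011. The 2 that rose, named after their values were seen, were Vcam1, an adhesion molecule (log2 fold change 0.23, limma adjusted p = 0.0375), and Tnfrsf10b, a death receptor (0.34, adjusted p = 0.00496). Without DOX replicate 1 neither passed (Vcam1 0.14, adjusted p = 0.259, and Tnfrsf10b 0.25, adjusted p = 0.0506). Vcam1 also did not pass without control replicate 2 (0.15, adjusted p = 0.203), with no filter on low values (adjusted p = 0.0988) or without a variance trend (adjusted p = 0.0774). Each median here is over the tested genes only, beside -0.04 for all genes tested. The counts stand beside 29.0% of all genes tested called higher and 35.4% called lower.

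While Cd274 rose, 19 genes known to act on PD-L1 RNA or protein went both ways: 4 rose, 10 fell and 5 did not pass (median log2 fold change -0.28). By the same test, 29.0% of all genes tested rose and 35.4% fell. Myc, a transcription factor reported to bind the Cd274 promoter, rose from 157 ± 14.9 to 527 ± 44.2 TPM (SD, n = 2, log2 fold change 1.74, limma adjusted p = 2.77e-07). Stat3, a cytokine-activated transcription factor, fell from 333 ± 14.4 to 138 ± 10.5 TPM. B3gnt3, a glycosyltransferase that modifies PD-L1, fell from 49.5 ± 3.71 to 23.9 ± 2.24 TPM. Chosen, like Irf1 and Cmtm6, after their values were seen, both chains of the interferon gamma receptor were lower, with Ifngr1 at 88.7 and 90.1 TPM in control cultures and 64.3 and 58.8 TPM with DOX, and Ifngr2 at 53.1 and 49.4 TPM against 32.1 and 34.2 TPM. Irf1, the interferon gamma-induced factor, did not pass, at 372 and 323 TPM in control cultures and 316 and 293 TPM with DOX (limma adjusted p = 0.0599). Irf1 passed as lower under quantile normalization (-0.28, limma adjusted p = 0.0113) and with a block for replicate number (adjusted p = 0.0193). Its log2 fold change of -0.19 was -0.29 without control replicate 2 and -0.24 without DOX replicate 1. Whether Irf1 passed therefore depended on the setting. Cmtm6, which protects PD-L1 from lysosomal breakdown, stood at 28.2 and 26.7 TPM in control cultures and fell to 20.4 and 16.7 TPM. Also named after their values were seen, the genes besides Myc that rose were Stt3a (log2 fold change 0.51), Rela (0.29) and Cops5 (0.24). Each of them had a limma adjusted p no higher than 0.00474. Jak1 (0.02) and Jak2 (-0.02) did not pass (adjusted p = 0.731 and 0.802).

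Of 7 partners and modifiers of CD47, 6 were tested, 1 rose and 3 fell (median log2 fold change -0.18), beside 29.0% and 35.4% of all genes tested. Lrp1, a scavenger receptor, fell from 157 ± 9.86 to 72.5 ± 7.83 TPM (SD, n = 2), and Calr, the calreticulin chaperone that acts as an engulfment signal at the cell surface, from 1191 ± 2.55 to 960 ± 29.7 TPM. Sirpa, the CD47 receptor gene, was itself listed in these cells at 11.7 and 13.0 TPM in control cultures and fell to 7.82 and 8.19 TPM. Thbs2, which encodes a thrombospondin, rose from 231 ± 8.61 to 291 ± 39.9 TPM. These 4 had limma adjusted p-values no higher than 0.00965, but the rise of Thbs2 did not pass with no filter on low values (adjusted p = 0.0624). Its log2 fold change of 0.33 was 0.29 without control replicate 2 and 0.19 without DOX replicate 2, and the call did not hold in either fit. Qpctl, the enzyme that modifies the CD47 end bound by SIRP alpha, did not pass, at 19.9 and 20.1 TPM in control cultures and 21.5 and 22.6 TPM with DOX. Under quantile normalization Qpctl passed as higher (0.27, limma adjusted p = 0.0154).

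All 10 genes listed as regulators or sheddases of NKG2D ligands were tested, and 3 rose and 5 fell (median log2 fold change -0.17). Calls over all genes tested were 29.0% higher and 35.4% lower. The proteases that can cut such ligands from the surface fell: Adam17 from 306 ± 7.10 to 147 ± 1.55 TPM, Mmp14 from 519 ± 19.8 to 269 ± 4.83 TPM and Adam10 from 96.0 ± 0.690 to 66.7 ± 1.16 TPM (SD, n = 2). Atr, a DNA damage kinase reported to raise NKG2D ligands, rose from 16.1 ± 0.117 to 32.6 ± 0.271 TPM. Each of the 4 had limma adjusted p-values no higher than 6.24e-05. The checkpoint kinases Chek1 and Chek2, named after their values were seen, were the other two that rose. Chek1 (limma adjusted p = 0.014) did not pass without control replicate 1 (adjusted p = 0.0645) or DOX replicate 1 (adjusted p = 0.0981).

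**Figure D4:**
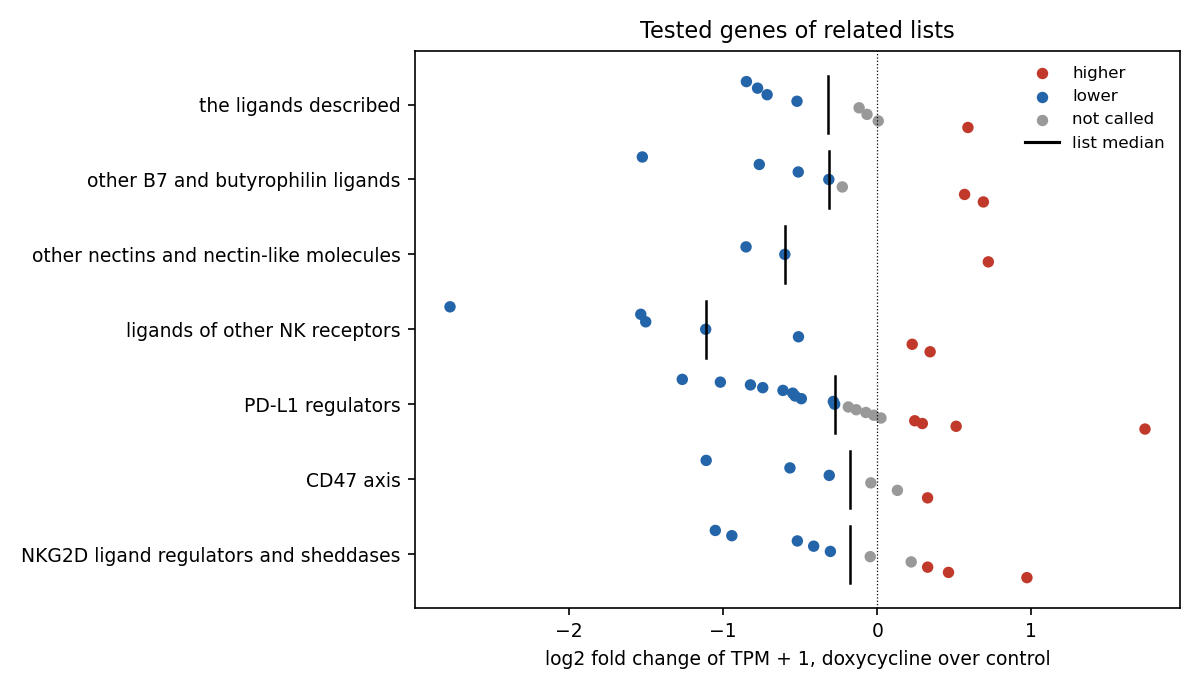
Log2 fold change (DOX over control) of each tested gene, by list, colored by call, with a black line at the list's median. All 7 lists hold calls in both directions, and Fas (-2.77) and Myc (1.74) lie farthest out.

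**Figure D5:**
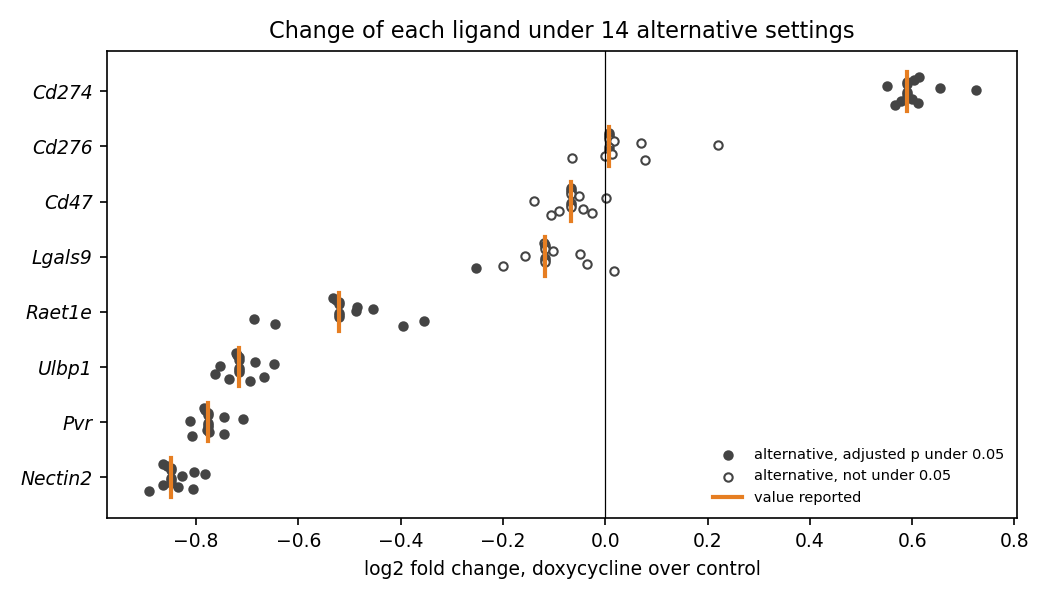
Log2 fold change of each tested ligand as reported (orange line) and under 14 alternative settings (points, filled where the adjusted p was under 0.05). Filled points throughout mark Cd274, Raet1e, Ulbp1, Pvr and Nectin2, whereas Cd276 and Cd47 have open points only and Lgals9 has 1 filled point.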

How the data were processed

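RNA of 4 libraries was measured. The authors deposited gene tables of TPM and FPKM, per the file headers' names and the values. In each library TPM were a constant times FPKM (3.08 to 3.14), so both hold the same estimates. The genome build was mm39, per the submitters' processing notes. The aligner, quantifier and annotation were not given in the sources used here. Groups and replicate numbers came from the sample titles.

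Genes averaging 1 TPM or more across the 4 libraries were fitted on log2(TPM + 1) with limma 3.58.1 in R 4.3.3 (lmFit, eBayes with a mean-variance trend), 2 DOX against 2 control libraries with no covariate, two-sided, with Benjamini-Hochberg adjustment over all genes tested and a threshold of 0.05. The sources used here do not describe how replicate cultures were separated, so p-values measure only the spread between these libraries.

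The members and lists were chosen with earlier results of these data known. Named genes are the 10 members, Cxcl14 and, from each related list, up to 4 called genes with the largest change, with others marked in the text or given as markers or members not passing, and 1 gene that the rule names is not reported here. Gene models for copies and overlaps came from GENCODE M21 (blastn 2.17.0, at least 97% identity over 100 bases or more). Of promoters, 8 of 10 members matched in RefSeq GRCm38.p6 by symbol. Protein comparisons were not run. Alternatives were other pseudocounts, filters, scalings and variance models, FPKM, a replicate block and each library left out.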

Additional observations from a re-analysis of the deposited data

How the results depend on the processing

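The calls of Cd274 (higher) and of Pvr, Nectin2, Ulbp1 and Raet1e (lower) held under all 14 alternatives. Raet1e came nearest to losing its call, with log2 fold changes from -0.69 to -0.35 and a highest limma adjusted p of 0.0431. Quantile normalization moved Cd276 to 0.22 (adjusted p = 0.0688) and Cd47 to -0.14 (adjusted p = 0.059). Genes with a change near 0 crossed it: Cd47 was 0.0024 under median-of-ratios scaling, and leaving out single libraries gave -0.065 to 0.078 for Cd276 and -0.25 to 0.017 for Lgals9, the latter passing (adjusted p = 0.0351) only without DOX replicate 1. The cause was not tested. A group left with 1 library was taken to vary like the other. Members called were 1 higher and 4 lower in each alternative that kept all 4 libraries. In those settings 19% to 34.1% of all genes tested were called higher and 25.2% to 36.2% lower. With the replicate block 3387 genes were called higher and 4114 lower, and no call among the members changed, while Irf1 (adjusted p = 0.0193) and Tnfrsf14 (adjusted p = 0.0293) of the related lists passed as lower. Replicate numbers recur in the titles of both groups. Deviations of equally numbered libraries did not move together (correlation over genes -0.0053). With 2 libraries per group, this cannot show whether equally numbered cultures had a common origin. Of 168 counts of calls in the related lists, 13 moved by over 1.5 times. Lower calls among other B7 and butyrophilin ligands, 4 of 7 tested as reported, were 7 of 15 with no filter on low values. They were 1 of 4 at a mean of at least 5 TPM, 2 of 5 with FPKM and 2 of 7 with quantile normalization. Of all genes tested, 25.2%, 35%, 34.2% and 29.5% were called lower in these settings, in that order. Under quantile normalization the other nectins had 1 lower call among 3 tested, and the CD47 list 2 higher calls among 6. All genes tested then stood at 29.5% lower and 34.1% higher. The CD47 list had 0 higher calls among 7 tested with no filter (19% of all genes), and its count also moved with single libraries left out. Higher calls among ligands of other NK receptors were 1 of 13 with no filter and 1 of 7 without a variance trend. Beside them stood 19% and 27.4% of all genes tested. That count also moved with single libraries left out. With no counts deposited, the depth of the libraries sets an unknown limit on low genes such as Pdcd1lg2 and H60b.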

Other observations

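Receptors for these ligands were sought in the same cultures. Of 14 receptor genes usually found on lymphocytes or myeloid cells, 12 had a mean under 1 TPM, and Ctla4, Tigit, Cd226 and Klrc1 were listed at 0 in all libraries. Pdcd1, which encodes PD-1, was listed at 0.171 and 0.220 TPM in control cultures and at 0 in both DOX libraries. Klrk1, which encodes NKG2D, was listed at 0.0057 TPM in 1 control library and at 0 in the others. Lag3 was tested and did not pass, at 1.98 and 1.37 TPM in control cultures and 1.44 and 1.43 TPM with DOX. Sirpa, the other receptor tested, stood at 11.7 and 13.0 TPM in control cultures. It was called lower, at 7.82 and 8.19 TPM with DOX (limma adjusted p = 0.00102). Havcr2, which encodes TIM-3, was at 0.538 and 0.802 TPM in control cultures and 0.621 and 0.477 TPM with DOX.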
